A study of Mus musculus with 6 samples.

Results

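The mitotic spindle, kinetochore and kinase genes are 43 genes taken by symbol from the 17030 genes of the deposited expression table. All 43 were found, each on its own row. All 43 also passed the filter on low values, which asked for at least 1 FPKM in at least 3 of the 6 libraries and left 11103 genes. FPKM scales the fragments counted for a gene by the length of its transcript and by the size of the library. The cells were SCC7, an established line derived from a squamous carcinoma of the mouse. The control group (n = 3) is labelled as receiving no treatment, and the irradiated group (n = 3) as receiving radiotherapy, which the treatment protocol gives as 9 Gy. Both groups were grown in high-glucose medium with serum, carry no other agent or genetic change in the labels, and share the time label day 0. How long after irradiation the cells were collected is thus not known. The labels do not say whether the 3 libraries of a group came from separate cultures, and the p-values describe the spread between libraries, which could be technical.

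Mitosis separates the copied chromosomes into a pair of daughter nuclei. Kinases of the PLK and Aurora families and the CDC25 phosphatases start it. Condensin compacts the chromosomes, kinetochores built on the centromeric histone CENP-A bind spindle microtubules, and the spindle checkpoint holds back the anaphase-promoting complex until every kinetochore is attached. That complex, with its activator CDC20, then marks securin and cyclin B for destruction, and kinesins and the contractile ring complete cytokinesis. Most of these genes are transcribed in late S phase, G2 and mitosis, so their RNA in a bulk sample depends on how many cells are in these phases. In such a sample, fewer cells in mitosis and less RNA per mitotic cell cannot be told apart.

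The irradiated libraries resembled each other closely (Pearson r of log2(FPKM + 1) across 11103 genes 0.994 to 0.995), whereas control 3 stood apart from controls 1 and 2 (0.956 and 0.928) and was closer to the irradiated libraries (0.960 to 0.966). The spread of the members was likewise larger among controls, with a median SD of 0.26 on the log2(FPKM + 1) scale against 0.11 among irradiated libraries. Of 10 epithelial markers, 6 stayed below 1 FPKM in every library, Krt5, Krt14, Epcam and Cdh1 among them. Krt8 measured 1249, 1361 and 487 FPKM in controls and 371 to 393 FPKM in irradiated libraries. The pan-leukocyte marker Ptprc reached at most 0.03 FPKM. The sum over 7 leukocyte markers in the table was 2.92 to 5.06 FPKM in controls and 7.44 to 9.30 FPKM in irradiated libraries, and its part in the results below was not tested. Of 5 fibroblast markers, Col1a1 (17.85 to 19.4 FPKM in controls, 40.6 to 53.2 FPKM in irradiated libraries) and Dcn (0.94 to 1.28 and 4.12 to 7.26 FPKM) did not overlap between the groups. Every irradiated value lay above every control in 31.8% of all genes. The groups overlapped for Col1a2 (70.0 to 141.7 FPKM in controls, 88.6 to 99.6 FPKM in irradiated libraries), Pdgfra (19.7 to 35.3 and 28.8 to 30.7 FPKM) and Pdgfrb (2.45 to 13.9 and 3.81 to 5.02 FPKM). All 5 together summed to 111 to 212 FPKM in controls and 168 to 193 FPKM in irradiated libraries, and their part in the results was not tested. The number of reads per library is unknown, since FPKM does not keep it.

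Of the mitosis genes, 40 of 43 did not pass the test between irradiated and control cells, and the 3 that did were lower: a pair of kinetochore genes and a phosphatase of mitotic entry. The outer kinetochore subunit Spc24 fell most, from 52.3 ± 13.9 to 18.6 ± 2.56 FPKM (SD, n = 3 each). The centromeric histone Cenpa fell from 151 ± 50.2 to 67.2 ± 6.02 FPKM, and the phosphatase Cdc25b from 41.3 ± 2.50 to 29.5 ± 1.42 FPKM. No member passed the test as higher. The comparison asks how transcript levels differ between irradiated and untreated SCC7 cells, and it was tested with limma on log2(FPKM + 1) over all 11103 genes at a Benjamini-Hochberg adjusted p of 0.05. Log2 fold changes are irradiated minus control on that scale, which understates the change of low genes.

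By this test 3 of 43 members were lower (6.98%) and 0 were higher. Of all genes tested, 2.77% were called lower and 9.24% higher. At an unadjusted p below 0.05, limma gave 8 members lower and 2 higher, beside 11.1% and 27.2% of all genes (38.3% in both directions together). In 13 members every irradiated value lay below every control (30.2%, beside 13.7% of all genes), and in 2, Kif20a and Kif20b, every irradiated value lay above (4.65%, beside 31.8%). The median log2 fold change of the members was -0.12, with 29 values below 0 and 14 above, against a median of 0.17 for all genes. The median of all genes depends on the scaling: it was -0.02 after quantile normalization, -0.0031 when libraries were scaled to a trimmed mean ratio and -0.06 after median centring. The members' median lay below that of all genes by each scaling, with a difference of -0.30 as deposited, -0.05 by quantiles, -0.31 by the trimmed mean and -0.30 by median centring.

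Rescaling also shifted the balance of calls among all genes. Quantile normalization left 3 members lower and 0 higher, beside 5.41% and 5.81% of all genes. Trimmed-mean scaling gave 5 lower, adding Knstrn and Ndc80, and 0 higher, beside 4.37% and 6.16%. Median centring gave 4 lower (Spc24, Cdc25b, Knstrn and Ndc80) and 0 higher, beside 4.58% and 5.34%. At an unadjusted p below 0.05, limma gave 9, 17 and 17 members lower in these fits, beside 18.2%, 17.9% and 20.3% of all genes. The members higher at that threshold were 2, 0 and 0, beside 17.2%, 18.9% and 16.3% of all genes.

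Set against single controls, every irradiated value lay below control 1 in 26 members, below control 2 in 19 and below control 3 in 25, beside 33.7%, 32.5% and 32.3% of all genes. Every irradiated value lay above these controls in 10, 14 and 7 members, beside 55.6%, 59.3% and 48.0% of all genes.

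**Figure D1:**
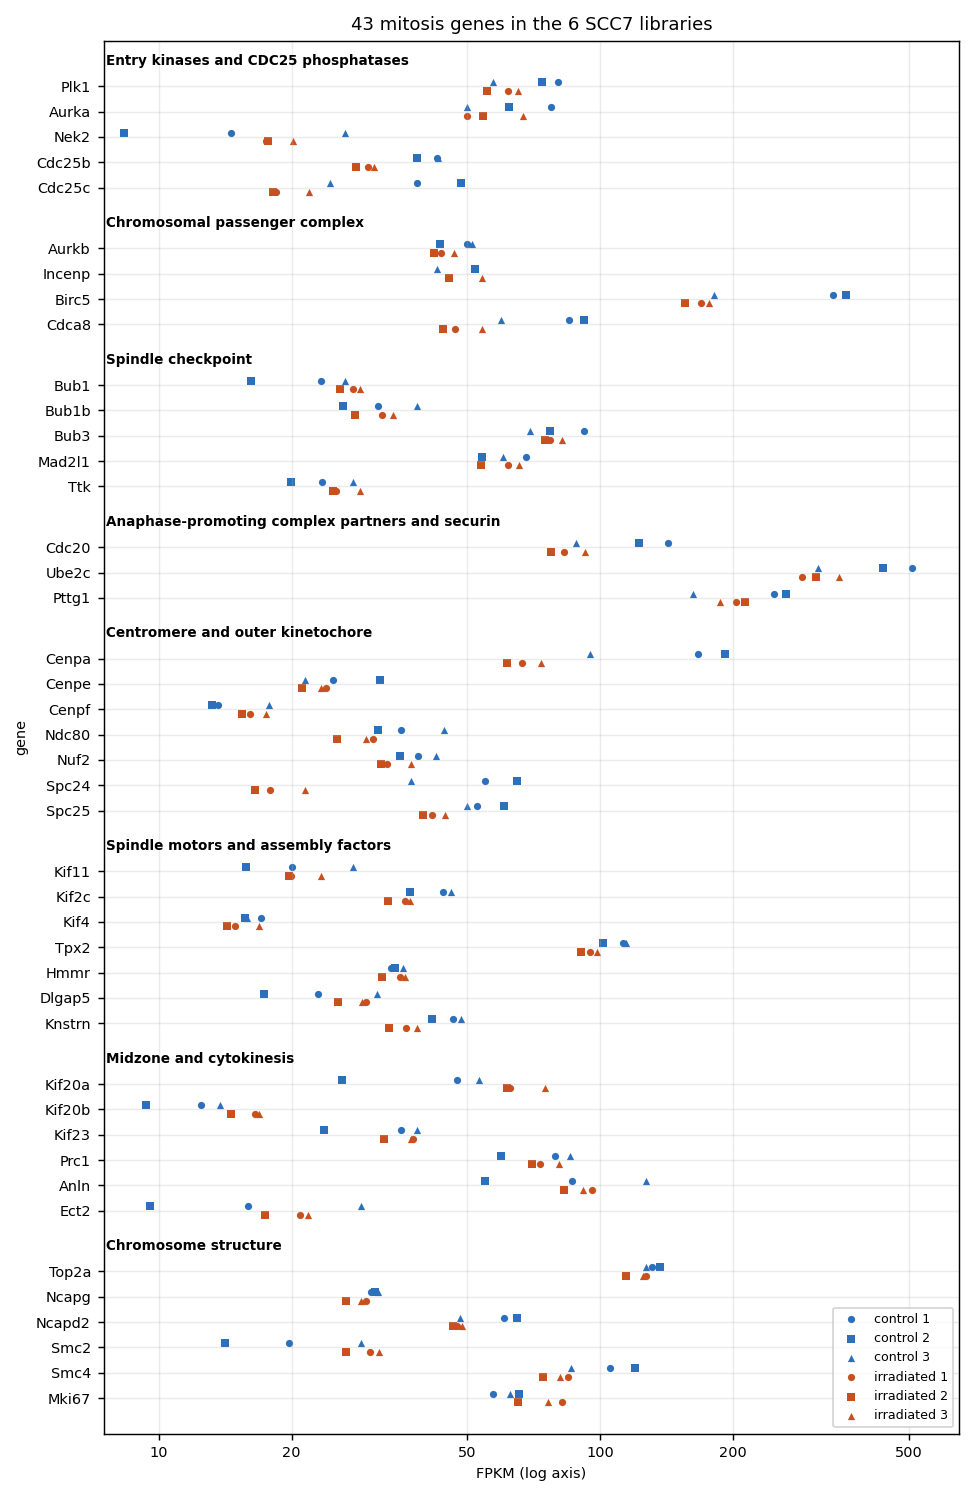
FPKM of each of the 43 mitosis genes (log axis) in the 3 control libraries (blue) and the 3 irradiated libraries (orange), grouped by role, with circle, square and triangle for libraries 1, 2 and 3. Spc24 and Cenpa show the widest gaps between groups, and control 3 (blue triangle) is the control nearest to the irradiated points for both.

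The calls did not hold when a library other than control 2 or 3 was left out. Without control 1, or without any one of the irradiated libraries, 0 members were called by limma. Without control 1, limma gave 6 members at an unadjusted p below 0.05, beside 2587 of 11060 genes. Without irradiated library 1, 2 or 3 it gave 5 each, beside 2281 of 10857, 2326 of 10854 and 2518 of 10866 genes. Without control 2 only Spc24 was called. The lower calls were 0.145% of all genes without control 1, 0.0921%, 0.0921% and 0.129% without irradiated library 1, 2 and 3, and 0.950% without control 2. The higher calls were 1.48%, 0.424%, 0.507%, 0.782% and 4.01% of all genes in the same order. Without control 3, 14 members were lower and 8 higher, in a fit that called 23.3% of all genes lower and 45.8% higher. With control 3 as the only control, 12 were lower and 1 higher, beside 14.4% and 22.8% of all genes; that fit takes its spread from the irradiated libraries alone. Spc24, Cenpa, Cdc25b and Knstrn were called lower in both of these fits. Nek2 and Ect2 were called higher in the first and lower in the second, and Pttg1 lower in the first and higher in the second.

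The members' promoters share sequence that the selection by symbol did not use. Genes expressed in G2 and mitosis commonly carry a cell cycle genes homology region, a short element near the start site with the letters TTTGAA or TTCGAA that binds the MuvB core of the DREAM and FOXM1 complexes, and upstream CCAAT boxes that bind NF-Y. RefSeq promoters (GRCm38.p6, 250 bases before to 50 bases after the start) were matched for 35 of 43 members; Aurkb, Cdc25c, Dlgap5, Incenp, Kif20a, Smc4, Spc24 and Tpx2 had none. Both strands were searched, and TTCGAA, which reads the same on both, was counted once per place. TTTGAA or TTCGAA occurred in 28 of 35 members (80.0%) and in 19.4% of 27025 promoters, and within 50 bases of the start in 25 of 35 members (71.4%) and in 5.29% of promoters. CCAAT occurred in 26 of 35 members (74.3%) and in 37.9% of all promoters, and at 2 or more places in 17 members (48.6%) and 12.2% of all. Promoters were also matched for 110 genes of the wider list of other mitosis genes described below. Of these, 42.7% held TTTGAA or TTCGAA, 56.4% held CCAAT and 30.9% held CCAAT at 2 or more places. Of 37 matches to TTTGAA or TTCGAA in the members, 1 overlapped a CCAAT. The members' promoters also had a higher median GC content than all promoters (59.0% against 52.7%). The 27025 promoters were not limited to genes that passed the filter on low values, as all members did. How far these differences add to the motif shares was not tested. A match describes the letters and does not show a working site.

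The 30-base windows below show that the element is present in called and uncalled members alike. They are taken at chr5:30666890-30666919 (plus strand) for Cenpa, chr2:131186943-131186972 (plus) for Cdc25b, chr7:122159453-122159482 (plus) for Plk1, chr2:127831828-127831857 (minus) for Bub1 and chr19:34922353-34922382 (plus) for Kif20b. Each is written 5′ to 3′ along the gene, with every TTTGAA or TTCGAA in capitals.
Cenpa: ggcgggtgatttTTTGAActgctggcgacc
Cdc25b: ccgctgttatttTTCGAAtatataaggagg
Plk1: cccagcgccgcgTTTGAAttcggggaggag
Bub1: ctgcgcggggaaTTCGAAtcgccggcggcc
Kif20b: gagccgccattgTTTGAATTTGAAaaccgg
The capitals begin at base 17 in Cenpa, 8 in Cdc25b, 31 in Plk1, 15 in Bub1 and 8 in Kif20b. A further match follows in Kif20b at base 14. These bases are counted from 1 at the start site of the matched promoter. In Cenpa, Cdc25b and Kif20b this site lies downstream of the first base of the gene's RefSeq span. The called genes Cenpa and Cdc25b hold the element, and so do Bub1 and Kif20b, whose log2 fold changes were above 0. The median log2 fold change was -0.05 in the 28 members with the element (range -1.10 to 0.52) and -0.16 in the 7 without it.

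Upstream of the start, Cenpa carries 2 CCAAT boxes, here in the opposite orientation (ATTGG, in capitals). The stretch ends before the RefSeq start of the gene and covers chr5:30666776-30666876 (plus strand).
Cenpa: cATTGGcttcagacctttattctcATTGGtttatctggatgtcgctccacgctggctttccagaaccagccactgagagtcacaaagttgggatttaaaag

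Among the entry kinases and CDC25 phosphatases, 1 of 5 members was called. Cdc25b, which removes inhibitory phosphates from CDK1 and CDK2 (chr2:131186436-131198511), measured 42.6, 38.4 and 42.9 FPKM in controls 1 to 3 and 29.8, 27.95 and 30.8 FPKM in irradiated libraries. The groups did not overlap, and this was the call with the least spread among controls (log2 fold change -0.47, SE 0.12, limma adjusted p = 0.0469). Against each control alone the difference was -0.52, -0.37 and -0.53. The call was lost when any sample other than control 3 was left out (limma adjusted p from 0.0580 to 0.218). The adjusted p rose to 0.0502 with a pseudocount of 0.1, to 0.0515 without a filter and to 0.0528 with a filter at 5 FPKM. Its relative Cdc25c, which acts on CDK1 at mitotic entry, measured 38.5, 48.3 and 24.4 FPKM in controls and 18.4, 18.2 and 21.9 FPKM in irradiated libraries. These groups did not overlap either, but the controls differed widely among themselves (-0.85, SE 0.25, limma adjusted p = 0.0655). The polo kinase Plk1, which drives centrosome maturation and much of mitotic progression, measured 80.3, 73.7 and 57.0 FPKM in controls and 61.7, 55.3 and 65.1 FPKM after irradiation. Control 3 lay within the irradiated range, and the difference did not pass (-0.20, limma adjusted p = 0.384). Aurka, the centrosomal Aurora kinase, likewise overlapped (-0.13). Nek2, which separates centrosomes, ranged from 8.35 to 26.5 FPKM among controls alone and from 17.5 to 20.2 FPKM among irradiated libraries. Whether Cdc25c, Plk1 and Nek2 were called turned on control 3. Without it, limma called Cdc25c (-1.11, adjusted p = 0.000212) and Plk1 (-0.34, 0.0210) lower and Nek2 higher (0.69, 0.0141). That fit called 23.3% of all genes lower and 45.8% higher. Against control 3 alone Cdc25c had -0.32, Plk1 0.08 and Nek2 -0.50.

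The chromosomal passenger complex corrects faulty attachments and consists of the kinase Aurkb and its partners Incenp, Birc5 (survivin) and Cdca8 (borealin). None of the 4 passed limma, and 2 had an unadjusted p below 0.05. Cdca8 measured 84.9, 91.8 and 59.5 FPKM in controls and 46.9, 44.0 and 53.9 FPKM in irradiated libraries (-0.67, SE 0.19, limma adjusted p = 0.0618). Birc5 was far higher in controls 1 and 2 than elsewhere, at 337 and 361 FPKM, beside 181 FPKM in control 3 and 169, 155 and 176 FPKM after irradiation. The Birc5 groups did not overlap, yet control 3 was within 0.12 (log2) of the irradiated mean, and the test was not passed (-0.75, SE 0.27, limma adjusted p = 0.0990). The kinase itself was steadier: Aurkb measured 49.9, 43.4 and 51.3 FPKM in controls and 43.7, 42.0 and 46.6 FPKM after irradiation (-0.12, limma adjusted p = 0.469). The scaffold Incenp had a log2 fold change of -0.02, which turned to 0.04 after quantile normalization. Without control 3, limma called Cdca8 (-0.86, adjusted p = 0.000303) and Birc5 (-1.06, 8.32e-05) lower, as it did 23.3% of all genes. Against control 3 alone Cdca8 had -0.30 and Birc5 -0.12.

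The spindle checkpoint senses unattached kinetochores through the kinases Ttk and Bub1, the pseudokinase Bub1b (BUBR1), Bub3 and Mad2l1 (MAD2), which blocks CDC20. Its 5 members gave no call and no unadjusted p below 0.05 by limma, and their median log2 fold change was -0.01. Bub3, the most abundant, measured 91.8, 76.8 and 69.2 FPKM in controls and 77.1, 74.9 and 81.8 FPKM after irradiation. Mad2l1 measured 67.9, 53.9 and 60.1 FPKM in controls and 61.7, 53.6 and 65.3 FPKM after irradiation. The groups overlapped for both genes, and quantile normalization turned their differences to 0.13 and 0.07. Bub1 ran from 16.2 to 26.4 FPKM in controls and 25.7 to 28.5 FPKM in irradiated libraries (0.33, limma adjusted p = 0.236), Ttk had 0.15 and Bub1b -0.02. Without control 3 Bub1 was called higher (0.47, limma adjusted p = 0.0223), as were 45.8% of all genes. Against control 3 alone Bub1 had 0.04. The direction of Ttk flipped after trimmed-mean scaling (-0.04) and after median centring (-0.08).

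Partners of the anaphase-promoting complex were among the most abundant members, and none of the 3 was called. Ube2c, the ubiquitin-conjugating enzyme of the complex, ranked highest of all 43 in every library, at 507, 435 and 311 FPKM in controls and 286, 307 and 346 FPKM after irradiation (-0.39, SE 0.21, limma adjusted p = 0.208). Cdc20, its activator, measured 142, 122 and 88.2 FPKM in controls and 82.6, 77.3 and 92.2 FPKM after irradiation (-0.46, SE 0.20, limma adjusted p = 0.138). In both genes controls 1 and 2 were high and control 3 was inside the irradiated range. Securin, Pttg1, ran from 162 to 264 FPKM in controls and from 187 to 212 FPKM after irradiation (-0.13, and 0.12 after quantile normalization). Against control 3 alone the medians of this group came to 0.01, against -0.70 and -0.48 with controls 1 and 2. Without control 3, limma called all 3 lower: Ube2c (-0.59, adjusted p = 0.00274), Cdc20 (-0.65, 0.00140) and Pttg1 (-0.35, 0.0145). That fit called 23.3% of all genes lower and 45.8% higher. Against control 3 alone Ube2c had 0.01, Cdc20 -0.07 and Pttg1 0.30. In RefSeq, Cdc20 overlaps the neighbouring gene Elovl1 by 53 bases; Elovl1 had a log2 fold change of -0.70 (limma adjusted p = 0.0469), and how strand was treated in counting is not stated. Overlaps with other genes also touch Aurka (Cstf1, 242 bases), Prc1 (Rccd1, 21669 bases), Anln (9530077C05Rik, 653 bases) and Ncapg (Lcorl, 3367 bases), and none of these neighbours was called.

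Centromere and outer kinetochore genes held the remaining calls, 2 of 7. Spc24 (chr9:21755434-21760446) encodes a subunit of the globular end of the NDC80 complex, which joins microtubules to the kinetochore. It measured 54.9, 64.8 and 37.2 FPKM in controls and 17.9, 16.5 and 21.4 FPKM in irradiated libraries. Every irradiated library lay below every control, the control mean was 2.81-fold higher, and the log2 fold change was -1.42 (SE 0.22, limma adjusted p = 0.0155). The difference was -1.52, -1.75 and -0.97 against controls 1, 2 and 3 alone and -1.64 without control 3. It kept its call under each scaling, filter, pseudocount and variance setting run, but not when control 1 (limma adjusted p = 0.0942) or irradiated library 1, 2 or 3 (0.126, 0.139 and 0.0861) was left out. Among the 43 members, Spc24 ranked at place 18, 13 and 29 by FPKM in controls 1 to 3 and at 39, 40 and 39 after irradiation.

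The other subunits of the same complex were not called. Spc25, which pairs with SPC24 directly, measured 52.6, 60.5 and 49.8 FPKM in controls and 41.7, 39.8 and 44.5 FPKM after irradiation, without overlap (-0.36, SE 0.13, limma adjusted p = 0.0932). Ndc80, a microtubule-binding subunit, had -0.36 with no overlap and Nuf2, its partner, -0.18, neither called. Without control 3 Spc25 was called lower (-0.42, limma adjusted p = 0.00772), as were 23.3% of all genes. Against control 3 alone Spc25 had -0.24, Ndc80 -0.62 and Nuf2 -0.32. Because a ratio within a library does not depend on its scaling, Spc24 was also set against Spc25 in each library. Spc24 FPKM were 1.04, 1.07 and 0.748 of Spc25 in controls 1 to 3 and 0.429, 0.414 and 0.482 of it in the irradiated libraries, with no overlap. The ratio of Ndc80 to Nuf2 ran from 0.894 to 1.04 in controls and from 0.792 to 0.930 after irradiation. These pairs were chosen after their values were seen and were given no test.

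**Figure D2:**
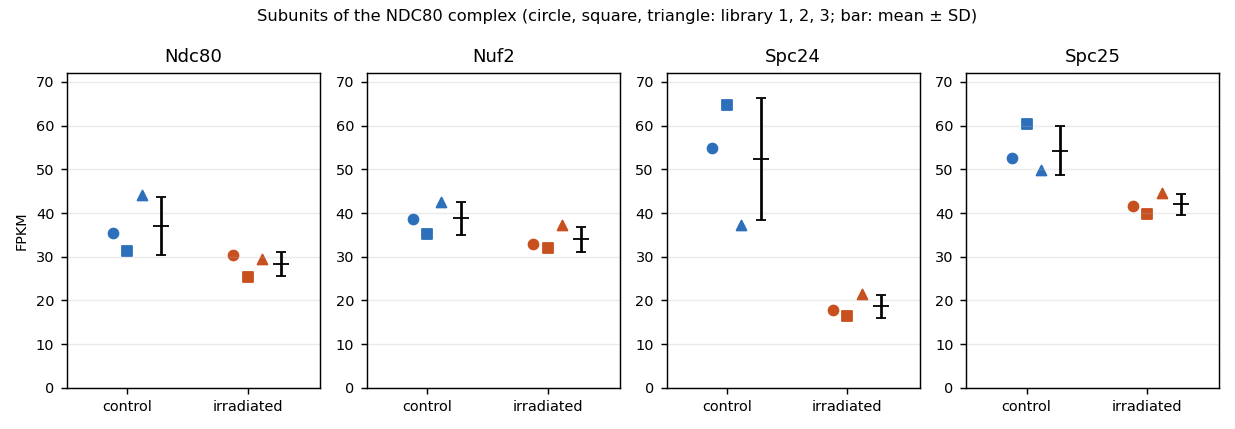
FPKM of the 4 NDC80 complex subunits in control (blue) and irradiated (orange) libraries, with the mean and SD beside the points. Spc24 falls from a control mean of 52.3 to 18.6 FPKM, while Nuf2 moves from 38.8 to 34.0 FPKM.

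Cenpa (chr5:30666877-30674837), which marks the centromere by replacing histone H3, measured 166, 192 and 94.8 FPKM in controls and 66.6, 61.4 and 73.4 FPKM in irradiated libraries. Control 3 was well below the other controls, and the irradiated libraries were lower still (-1.10, SE 0.27, limma adjusted p = 0.0464). The difference from controls 1, 2 and 3 alone was -1.30, -1.50 and -0.49, so its size depends on which control is used. The call was lost after median centring (limma adjusted p = 0.0519), with a pseudocount of 0.1 (0.0513), without a filter (0.0633), with a filter at 5 FPKM (0.0541), on omission of control 1 or 2 (0.171 and 0.0927) and on omission of irradiated library 1, 2 or 3 (0.203, 0.208 and 0.167). It was kept after quantile normalization (-0.91, 0.0416) and the trimmed mean (-1.29, 0.0494). The large kinetochore proteins were not called: Cenpe, a kinetochore motor, had -0.16 and Cenpf 0.14. Without control 3 Cenpf was called higher (0.27, limma adjusted p = 0.0463), as were 45.8% of all genes. Against control 3 alone Cenpf had -0.11. Cenpf went below 0 after each rescaling (-0.08 by quantiles, -0.04 by the trimmed mean and -0.09 by the median).

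None of the 7 spindle motors and assembly factors was called by limma, and 1, Knstrn, had an unadjusted p below 0.05. Knstrn (kinastrin), which helps attach kinetochores to the spindle, measured 46.3, 41.6 and 48.4 FPKM in controls and 36.3, 33.3 and 38.5 FPKM after irradiation. The groups did not overlap (-0.33, SE 0.12, limma adjusted p = 0.109), and Knstrn was called lower after trimmed-mean scaling and after median centring. Tpx2, which activates Aurora A and nucleates spindle microtubules, measured 113, 101 and 114 FPKM in controls and 94.9, 90.3 and 98.0 FPKM after irradiation, also without overlap (-0.21, limma adjusted p = 0.234). Hmmr, a spindle-associated hyaluronan receptor, was the flattest member, at 33.6, 34.2 and 35.7 FPKM against 35.2, 32.0 and 36.1 FPKM (-0.01). The bipolar motor Kif11 had 0.02, the depolymerase Kif2c -0.25, the chromokinesin Kif4 -0.07 and the kinetochore-fibre protein Dlgap5 0.26. Kif11 went below 0 under each rescaling (-0.14, -0.17 and -0.21). Without control 3, limma called Knstrn lower (-0.28, adjusted p = 0.0443) and Dlgap5 higher (0.46, 0.0160). That fit called 23.3% of all genes lower and 45.8% higher. Against control 3 alone Dlgap5 had -0.15, Knstrn -0.42, Tpx2 -0.27, Kif11 -0.38 and Kif2c -0.37. RefSeq lists a transcribed pseudogene, Kif4-ps, so reads of Kif4 could have been split.

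In the midzone and cytokinesis group all 6 log2 fold changes were above 0, with a median of 0.21, near the 0.17 of all genes. None was called by limma, and 2 had an unadjusted p below 0.05. Kif20a (MKLP2), which carries the passenger complex to the midzone, measured 47.5, 25.95 and 53.2 FPKM in controls and 62.5, 61.6 and 74.8 FPKM after irradiation. Every irradiated library was above every control (0.70, SE 0.27, limma adjusted p = 0.114). Kif20a shares 4930 bases with the neighbouring gene Cdc23 in RefSeq, whose log2 fold change was 0.93 (limma adjusted p = 0.0852). Another 240 bases are shared with Brd8 (0.34, limma adjusted p = 0.231), and neither neighbour was called. Reads in a shared part cannot be assigned to either gene if strand was not used. Kif20b, a related kinesin, measured 12.5, 9.36 and 13.8 FPKM against 16.5, 14.6 and 16.9 FPKM, again without overlap (0.41, SE 0.17, limma adjusted p = 0.122). Without control 3, limma called Kif20a (0.89, adjusted p = 0.00725) and Kif20b (0.52, 0.00934) higher, as it did 45.8% of all genes. Against control 3 alone Kif20a had 0.31 and Kif20b 0.20. Prc1, the crosslinker of midzone microtubules, measured 78.8, 59.6 and 85.4 FPKM in controls and 72.9, 69.9 and 80.7 FPKM after irradiation (0.01).

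Anillin and Ect2 showed how far the controls themselves spread. Anln, which organises the contractile ring, measured 86.3, 54.9 and 127 FPKM in controls 1 to 3 and 95.5, 82.9 and 91.3 FPKM after irradiation. Ect2, the activator of RhoA, ran from 9.58 to 28.8 FPKM in controls and from 17.4 to 21.8 FPKM in irradiated libraries. In both genes the irradiated libraries fell inside the control range, with log2 fold changes of 0.09 and 0.26. Without control 3 Ect2 was called higher (0.65, limma adjusted p = 0.0167), as were 45.8% of all genes. Against control 3 alone Ect2 had -0.50 and Anln -0.49. Anln went below 0 after trimmed-mean scaling (-0.11) and median centring (-0.14). The median of the group was 0.70 against control 2, 0.18 against control 1 and -0.15 against control 3, so its direction depended on the control. Kif23, the centralspindlin motor, had 0.16, and -0.03 and -0.07 after the same rescalings; Prc1 went to -0.18 and -0.22.

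**Figure D3:**
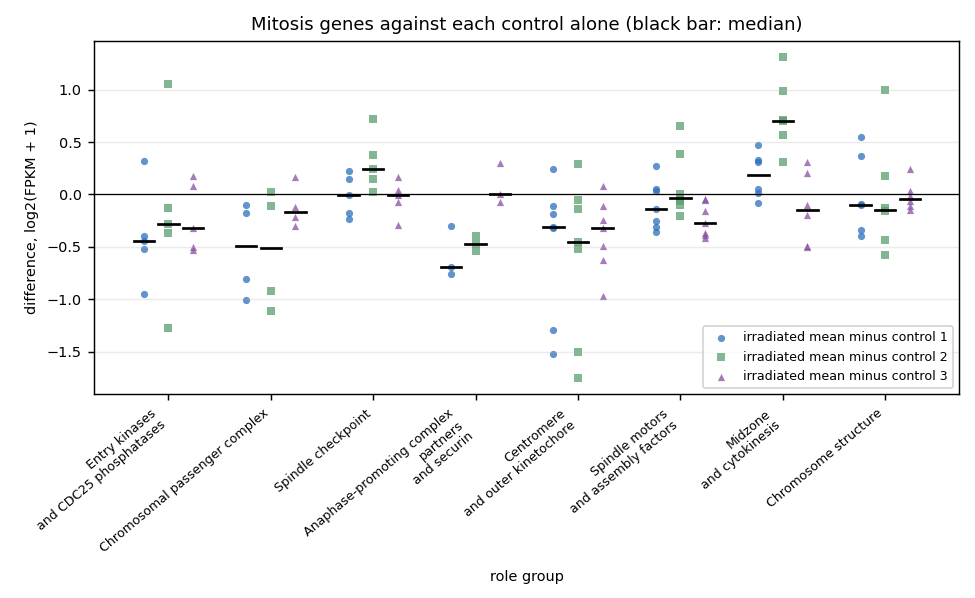
Difference between the irradiated mean and each control alone, on the log2(FPKM + 1) scale, for every member by role group; black bars are group medians. The centromere and kinetochore medians lie below 0 for all controls (-0.31, -0.46 and -0.32), whereas the midzone median is 0.70 against control 2 and -0.15 against control 3.

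Genes of chromosome structure were not called, and 0 of 6 had an unadjusted p below 0.05 by limma. Topoisomerase II alpha, Top2a, which untangles sister chromatids, measured 131, 137 and 127 FPKM in controls and 127, 115 and 125 FPKM after irradiation (-0.11, limma adjusted p = 0.521). Its groups nearly met, at 127.14 FPKM in the lowest control and 126.92 FPKM in the highest irradiated library, and quantile normalization turned the difference to 0.10. Mki67, the Ki-67 proliferation marker that coats mitotic chromosomes, measured 57.2, 65.4 and 62.4 FPKM in controls and 82.0, 65.1 and 75.9 FPKM after irradiation. It did not pass (0.26, SE 0.14, limma adjusted p = 0.197), and 2 of the 3 irradiated libraries lay above all controls. Neither condensin ATPase was called. Smc4 measured 105, 120 and 85.9 FPKM in controls and 84.5, 74.0 and 80.8 FPKM after irradiation (-0.36, SE 0.16, limma adjusted p = 0.139), whereas Smc2 ran from 14.2 to 28.7 FPKM in controls and 26.5 to 31.5 FPKM after irradiation (0.52, limma adjusted p = 0.162). After the length and GC correction Smc2 had 0.0072. Without control 3, limma called Smc2 higher (0.77, adjusted p = 0.00207) and Smc4 lower (-0.49, 0.00381). That fit called 23.3% of all genes lower and 45.8% higher. Against control 3 alone Smc2 had 0.03 and Smc4 -0.11. The non-SMC subunits Ncapg and Ncapd2 had -0.12 and -0.27; Ncapd2 was called lower without control 3 (-0.39, limma adjusted p = 0.00583) and had -0.02 against it alone.

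**Figure D4:**
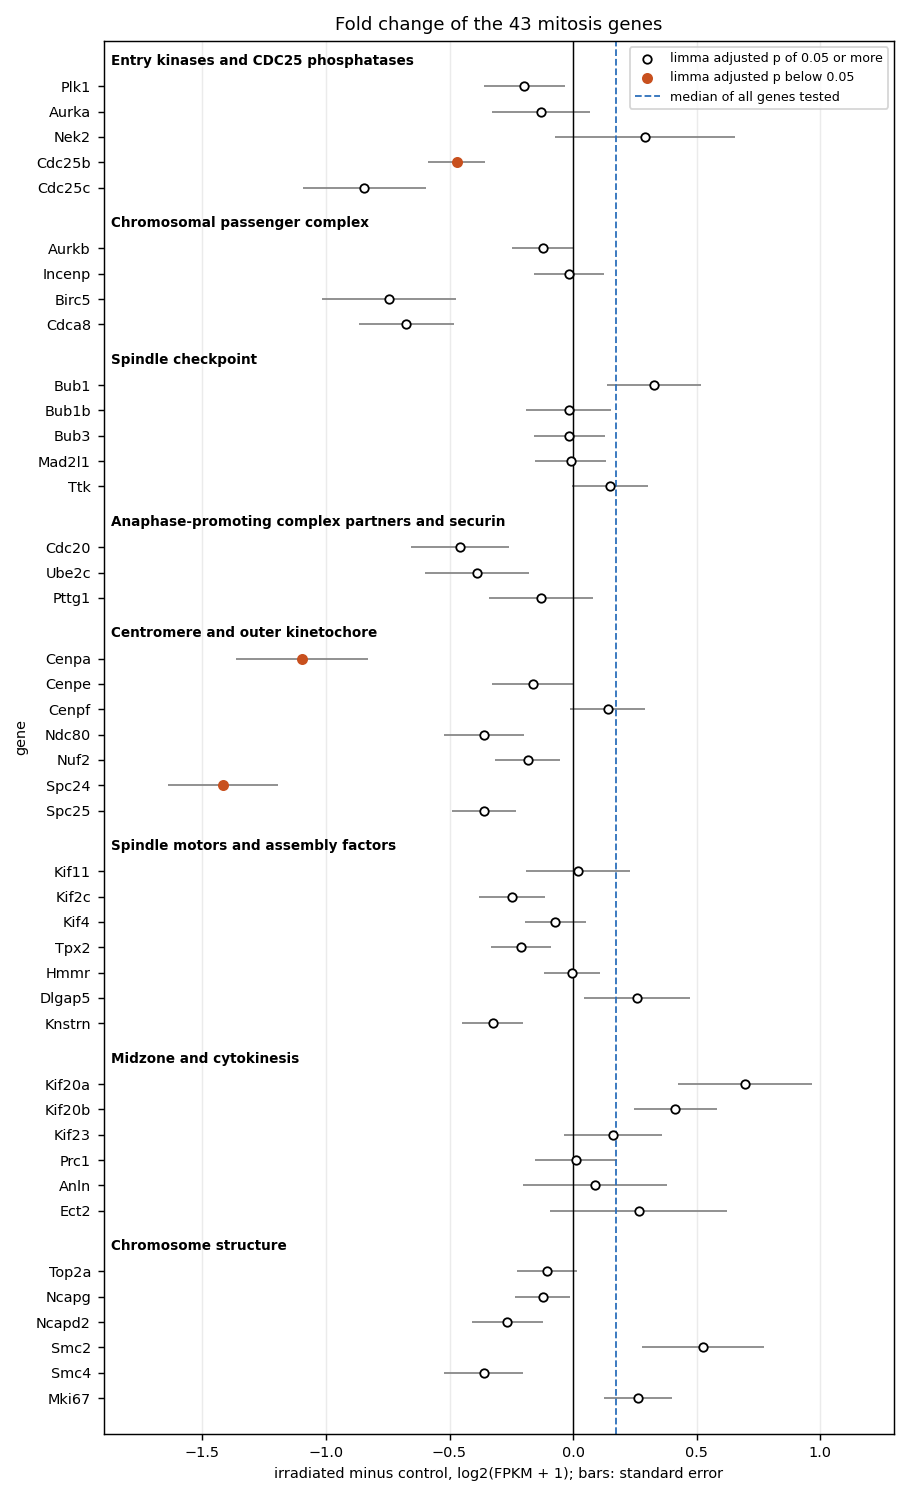
Log2 fold change (irradiated minus control, log2(FPKM + 1)) with its standard error for the 43 members by role; filled points passed limma at an adjusted p below 0.05, and the dashed line is the median of all genes tested. Spc24, Cenpa and Cdc25b are the filled points, and 29 of 43 members lie below 0.

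Short members were lower than long ones. All 11 members with a transcript under 2000 bases had a log2 fold change below 0 (median -0.46), among them Spc24, Cenpa, Cdca8, Cdc25c, Birc5 and Cdc20. The 17 members of 2000 to 4000 bases had a median of -0.02 and the 15 of over 4000 bases a median of -0.01. The same order held in all genes tested, where the medians were -0.18, 0.17 and 0.42, and in each class the members' median lay below that of all genes. Across the 43 members, Spearman's rho between fold change and length was 0.57 (0.65 and 0.51 against controls 1 and 2, and 0.20 against control 3), beside 0.43 across 10930 genes. Genes are not independent replicates, and all points share the same 6 libraries. After each library was corrected for its trend with transcript length and GC content, 11 members were lower and 0 higher. All 24 members that had an unadjusted limma p below 0.05 in that fit were lower. Of 10930 genes, 2183 were lower and 1843 higher at that unadjusted p. At the adjusted threshold the fit called 7.95% of all genes lower and 7.56% higher. Spc24, Cenpa and Cdc25b kept their calls in it (-1.31, -1.09 and -0.64, limma adjusted p = 0.00618, 0.0347 and 0.0117). The others were Tpx2, Knstrn, Nuf2, Ndc80, Kif2c, Cdca8, Cenpf and Kif11, of which Cenpf and Kif11 were above 0 in the main fit.

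**Figure D5:**
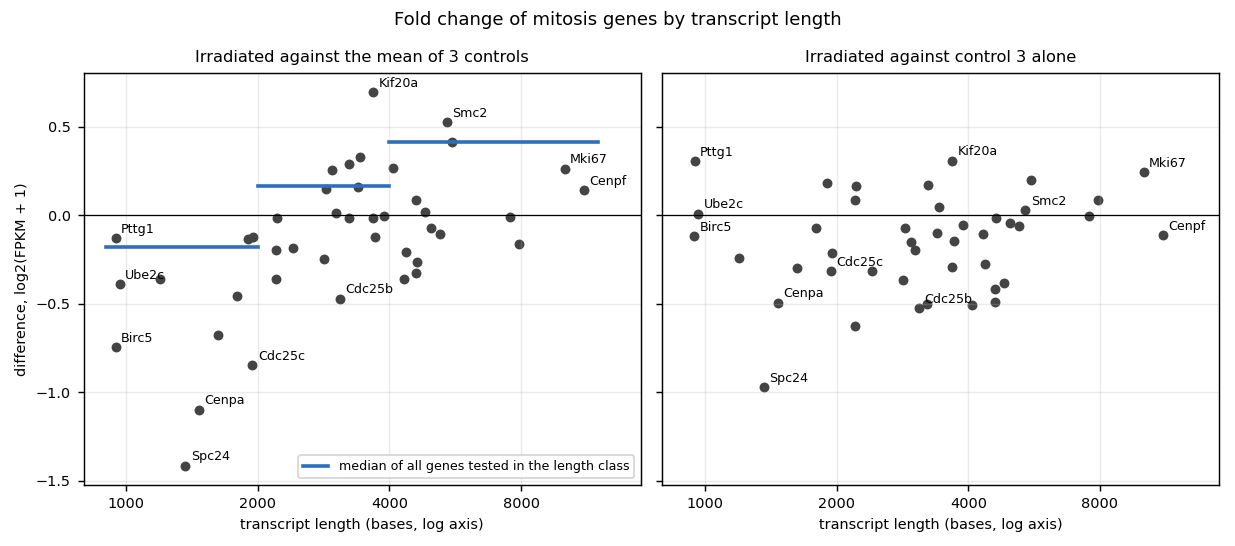
Log2 difference of each member against its transcript length (log axis), with all 3 controls on the left and control 3 alone on the right; blue lines (left panel) are medians of all genes tested in 3 length classes. Members under 2000 bases all lie below 0 on the left, and the slope is weaker on the right (Spearman's rho 0.57 and 0.20).

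A wider list of 130 other genes of the mitotic machinery, all tested, gave 11 lower calls (8.46%) and 2 higher (1.54%) by the same limma fit, beside 2.77% and 9.24% of all genes. Most did not fall: 70 of the 130 had a log2 fold change above 0 and 60 below. Every irradiated value lay below every control in 37 (28.5%) and above in 29 (22.3%), beside 13.7% and 31.8% of all genes. Of 32 genes of the inner centromere network and other kinetochore parts, 3 were called: Cenpm, Cenpk and Cenpp, subunits of the network that sits on CENP-A chromatin, fell by 1.29, 0.84 and 0.79 on the log2 scale (limma adjusted p = 0.0479, 0.0241 and 0.0173). Of the same 32 genes, 14 had a log2 fold change above 0 and 18 below. Cenpm measured 102, 159 and 61.6 FPKM in controls and 38.6, 40.02 and 42.7 FPKM after irradiation. Like Cenpa and Spc24, it was lowest among controls in control 3 and lower still in the irradiated libraries, by 0.60 against control 3 alone and 1.63 without it, and its call was lost after trimmed-mean scaling and median centring. The mitotic kinase Pbk fell from 103, 97.5 and 79.7 FPKM to 51.2, 42.8 and 46.7 FPKM, which had the smallest p of the list (log2 fold change -0.97, limma adjusted p = 0.0135). Cks1b, a CDK-binding subunit, fell by 0.72 and the condensin II subunit Ncaph2 by 0.69.

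Further lower calls were the anaphase-promoting complex subunits Anapc16 and Anapc5, the spindle proteins Spag5 and Haus4, and Arhgef39, with log2 fold changes from -0.78 to -0.52. Psrc1, a spindle protein known as a p53-responsive gene, rose from 40.3, 39.1 and 44.8 FPKM to 67.3, 61.0 and 57.4 FPKM (0.57, limma adjusted p = 0.0381). Sgo2a, a shugoshin that protects centromeric cohesin, rose by 0.49 (limma adjusted p = 0.0493), and by only 0.0077 after the length and GC correction (0.976). Neither Psrc1 nor Sgo2a was called after trimmed-mean scaling (limma adjusted p = 0.0842 and 0.102) or median centring. The 11 regulators of mitotic transcription, Foxm1 and Mybl2 among them, gave no call, with 2 at an unadjusted p below 0.05. Foxm1, the factor that drives the G2 and mitosis program, measured 58.1, 56.4 and 64.9 FPKM in controls and 62.1, 57.3 and 59.7 FPKM after irradiation. None of the 13 calls remained without control 1 or without any one of the irradiated libraries, and without control 2 the calls were Cenpp, Ncaph2 and Pbk. Of all genes, the fits without control 1 or an irradiated library called 0.0921% to 0.145% lower and 0.424% to 1.48% higher, and the fit without control 2 called 0.950% lower and 4.01% higher. Without control 3 the list held 44 lower and 50 higher calls, beside 23.3% and 45.8% of all genes.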

How the data were processed

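RNA was sequenced from 3 control and 3 irradiated SCC7 samples after removal of ribosomal RNA. The deposited values are FPKM per gene, rounded to 2 decimals, per the file headers. HISAT and the build GRCm38.p6 are named in the submitters' processing notes. The counting tool, the annotation and the strand setting are not stated there. FPKM depends on the assigned transcript length and on the library total, so abundant genes shift all others. Depth is unknown. All 6 value columns were used, and no pair held identical values.

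Genes that reached 1 FPKM in 3 or more samples were tested with limma 3.58.1 (R 4.3.3) on log2(FPKM + 1), 2 groups, trend and robust empirical Bayes, and Benjamini-Hochberg adjustment over 11103 genes. On simulated data for this comparison (10926 genes, independent genes with SDs pooled over groups), 37.0% of 100 genes changed 2-fold and 89.9% of 99 changed 4-fold were recovered, with 4 unchanged genes called. The fit assumes equal variance in both groups, which the controls exceed, so p-values are approximate. Transcript length and GC came from GENCODE M21 (longest principal transcript), known for all 43 members and 10930 tested genes, and positions and promoters from RefSeq GRCm38.p6.

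The members, lists and alternatives were chosen with earlier results of these data known. Values in every sample are given for 23 members: those with the 12 smallest and 3 largest p, the most abundant of each role group, and Mki67, Top2a, Plk1, Cdc20, Aurkb and Birc5. Of the other mitosis genes, those called are named. Other examples were chosen after their values were seen. Alternatives were other scalings (the trimmed mean of log ratios without weights, since FPKM has no count variance), filters, pseudocount and variance options, a replicate block, a length and GC correction (splines with 4 degrees of freedom), control 3 as the only control, and omission of each sample. The sequence of a further promoter is not reported here.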

Additional observations from a re-analysis of the deposited data

How the results depend on the processing

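The members' 3 lower calls became 5 after trimmed-mean scaling, 1 without a filter, with a filter at 5 FPKM and with a pseudocount of 0.1, 11 after the length and GC correction and 12 with control 3 as the only control, where 1 was higher. The 0 higher calls held in every other setting run that kept all samples. Of all genes, 1.37% were called lower without a filter, 2.49% with a filter at 5 FPKM and 2.37% with a pseudocount of 0.1. The higher calls were 6.49%, 5.69% and 7.09% of all genes in the same order. On leaving out each sample, lower calls ranged from 0 to 14 and higher calls from 0 to 8. The median of -0.12 became -0.31 after trimmed-mean scaling, -0.35 after median centring and -0.37 after the length and GC correction, and ranged from -0.14 to -0.044 on leaving out each sample. For the other mitosis genes, the 2 higher calls became 0 after trimmed-mean scaling and median centring, 1 without a filter, with a filter at 5 FPKM and with a pseudocount of 0.1, and 9 against control 3 alone. Their 11 lower calls became 26 after the length and GC correction and 31 against control 3 alone, and on leaving out each sample the counts ranged from 0 to 44 lower and 0 to 50 higher. Their median of 0.07 became -0.13 (quantiles), -0.11 (trimmed mean), -0.16 (median centring), -0.19 (length and GC) and -0.090 (control 3 alone), and ranged from -0.013 to 0.10 on leaving out each sample. The cause of these shifts was not tested.

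Deviations from the group means correlated at -0.11, 0.02 and -0.16 for samples that share number 1, 2 or 3. For samples with unequal numbers the correlations ran from -0.17 to 0.26. With 3 libraries per group, whose deviations sum to 0, these values cannot decide whether the samples were paired. With the sample number as a replicate block, limma called 0 members and 0 other mitosis genes, beside 0.360% of all genes lower and 2.34% higher. At an unadjusted p below 0.05 limma gave 8 members and 48 other mitosis genes, beside 3663 of 11103 genes. In the block fit Spc24 had a limma adjusted p of 0.0530. Weights per library could not be fitted, since their estimate did not converge.

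Some members changed sign with the setting. Against control 3 alone these were Plk1 0.085, Aurka 0.18, Nek2 -0.50, Incenp 0.17, Bub3 0.17, Ttk -0.075, Ube2c 0.0081, Pttg1 0.30, Cenpe 0.085, Cenpf -0.11, Kif11 -0.38, Dlgap5 -0.15, Kif23 -0.10, Prc1 -0.20, Anln -0.49 and Ect2 -0.50. After the length and GC correction they were Bub1 -0.057, Ttk -0.15, Cenpf -0.47, Kif11 -0.44, Kif20b -0.11, Kif23 -0.16, Prc1 -0.28, Anln -0.32, Ect2 -0.18 and Mki67 -0.30. After median centring they were Ttk -0.080, Cenpf -0.090, Kif11 -0.21, Kif23 -0.070, Prc1 -0.22 and Anln -0.14. After quantile normalization they were Incenp 0.039, Bub3 0.13, Mad2l1 0.071, Pttg1 0.12, Cenpf -0.075, Kif11 -0.14 and Top2a 0.10. After trimmed-mean scaling they were Ttk -0.038, Cenpf -0.044, Kif11 -0.17, Kif23 -0.030, Prc1 -0.18 and Anln -0.11. On leaving out each sample, signs changed within -0.22 to 0.38 for Anln, -0.29 to 0.025 for Aurka, -0.15 to 0.12 for Bub1b, -0.11 to 0.093 for Bub3, -0.096 to 0.65 for Ect2, -0.039 to 0.045 for Hmmr, -0.11 to 0.033 for Incenp, -0.16 to 0.22 for Kif11, -0.045 to 0.29 for Kif23, -0.089 to 0.074 for Mad2l1, -0.090 to 0.69 for Nek2, -0.14 to 0.12 for Prc1 and -0.35 to 0.0016 for Pttg1.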

Other observations

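Ratios of partner genes were taken within libraries, where scaling cancels. The condensin subunits Smc2 and Smc4, which form a heterodimer in the cell, had an FPKM ratio of 0.188, 0.118 and 0.334 in controls 1 to 3 and of 0.356, 0.358 and 0.390 in irradiated libraries. The ratio of Bub1 to its relative Bub1b was 0.741, 0.619 and 0.687 in controls and 0.859, 0.923 and 0.842 after irradiation. Kif20a relative to Kif23, both midzone kinesins, was 1.34, 1.09 and 1.38 in controls and 1.66, 1.90 and 2.01 after irradiation. Cdca8 relative to Aurkb was 1.70, 2.11 and 1.16 in controls and 1.08, 1.05 and 1.16 after irradiation, where control 3 and irradiated library 3 nearly met. Aurka relative to its activator Tpx2 overlapped between the groups, at 0.436 to 0.686 in controls and 0.527 to 0.680 after irradiation. These pairs were chosen after their values were seen and were given no test.

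As a share of all FPKM, the 43 members together took 0.373%, 0.315% and 0.385% in controls 1 to 3 and 0.3801%, 0.3550% and 0.39999% in irradiated libraries, and these shares overlapped between the groups. Their summed FPKM did not overlap, at 3273, 3098 and 2674 in controls and 2481, 2355 and 2637.5 in irradiated libraries, beside totals over all genes of 693961 to 982553 and 652691 to 663489 FPKM.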
